A study of Mus musculus with 6 samples.

Results

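The genes described here encode granule proteins and receptors of eosinophils and basophils: Prg2, Prg3, Epx, Ear1, Ear2, Ms4a2, Fcer1a and Hdc. Every probe set whose annotation names one of these 8 symbols was taken, which gave 8 of the 45037 probe sets other than controls, for 6 of the 8 genes. Prg2, Prg3, Epx and Fcer1a had 1 probe set each, and Ms4a2 and Hdc had a pair each. No probe set used here names Ear1 or Ear2, which were therefore not analysed. The genes were chosen for their values on single arrays and their spread within each group, so their levels, differences and spread are given as a description, and nothing is read from how many of them a test called.

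RNA was measured on 1 Affymetrix array per mouse in lineage-negative, cKit-positive, Sca1-positive (LSK) bone marrow cells, the fraction that holds stem cells and early multipotent progenitors. The 3 N1IC mice carried Mx1-cre and a lox-stop-lox N1-IC allele, which Cre opens to produce the active intracellular part of Notch1, and all 3 were female. The 3 WT mice carried Mx1-cre without that allele, and were 2 males (replicates 1 and 3) and 1 female (replicate 2). All mice were 5 weeks old and, per the labels' treatment text, were given polyIC (20 mcg for each g of weight) 3 times, starting on day 21, and their cells were sorted 2 weeks after the last dose. That text names floxed Ncstn alleles where the genotype labels name N1-IC, and the groups follow the genotype labels. The Mx1 promoter answers to interferon in many cell types, so the allele is not opened in LSK cells alone, and polyIC itself was given to both groups. Values are log2 intensities, on which a difference of 1 is a doubling, and the small number of arrays limits their precision.

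Eosinophils and basophils are rare granulocytes of allergic and antiparasitic immunity that arise in the bone marrow. Eosinophils store cationic toxins in their granules, namely the major basic proteins, eosinophil peroxidase and ribonucleases of the Ear family. Basophils and mast cells carry the high-affinity IgE receptor, whose crosslinking by antigen releases histamine. In mice, both lineages depend on GATA transcription factors and are driven by interleukin 3 and related cytokines. Mature eosinophils and basophils of mice usually carry little Kit, a marker that the LSK sort requires.

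Arrays had median intensities between 89.0 and 92.4. Kit, the receptor used in the sort, stood at 11.57, 11.51 and 11.45 in N1IC, against 11.94, 11.58 and 11.75 in WT on its brighter probe set. On its other probe set the groups overlapped, at 9.63, 9.56 and 9.59 in N1IC, against 10.07, 9.47 and 9.31 in WT. Of 7 measured markers of LSK cells, Kit among them, 6 were lower in N1IC by limma with Benjamini-Hochberg adjustment and 0 were higher (also 0 at an unadjusted p of 0.05). Notch1 averaged 12.93 ± 0.11 in N1IC and 12.19 ± 0.16 in WT (SD, n = 3 each). Where its probe set lies relative to the transgene is not known here.

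The granule genes of eosinophils spread more widely among the WT arrays than between the groups. Prg2 encodes major basic protein, the main protein of the eosinophil granule core. It stood at 10.82, 10.12 and 11.17 in N1IC replicates 1 to 3, against 3.88, 13.35 and 11.36 in WT replicates 1 to 3. The 3 N1IC arrays lay closer together than the WT arrays and inside the WT range, whose ends were WT replicate 1 and WT replicate 2. On the linear scale the WT arrays stood at intensities of 14.7, 10411 and 2630, while the N1IC arrays differed by 2.07-fold at most. WT replicate 1 was dim, below the arrays' median intensities of 89.0 to 92.4, and no detection call was available, so no exact fold over it can be given. The SD of Prg2 over the WT arrays, 4.99, was the largest of all 45037 probe sets. Its SD over the N1IC arrays was 0.53, still larger than that of 94.4% of all probe sets. In these bulk samples, fewer cells of a type and less RNA per cell cannot be told apart.

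Epx, the eosinophil peroxidase, stood at 8.81, 7.66 and 8.75 in N1IC, against 4.74, 12.98 and 9.17 in WT. Prg3, a homologue of Prg2 that encodes a further major basic protein, stood at 7.27, 6.35 and 7.44 in N1IC, against 4.84, 11.74 and 7.92 in WT. Both repeated the order of Prg2, with WT replicate 2 the highest and WT replicate 1 the lowest of the 6 arrays, and with N1IC replicate 2 the lowest of the N1IC arrays. WT replicate 1 was dim for both as well, at intensities of 26.7 for Epx and 28.6 for Prg3, against 8087 and 3413 on WT replicate 2. Between WT replicates 2 and 3, Epx differed 14.0-fold and Prg3 14.1-fold, but Prg2 3.96-fold. Down to the dim WT replicate 1, the step below WT replicate 3 was 7.48 log2 units for Prg2, 4.43 for Epx and 3.08 for Prg3 as deposited. Over the 6 arrays, which these genes share, Pearson's r was 0.982 between Prg3 and Epx, 0.911 between Prg2 and Epx and 0.819 between Prg2 and Prg3.

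**Figure D1:**
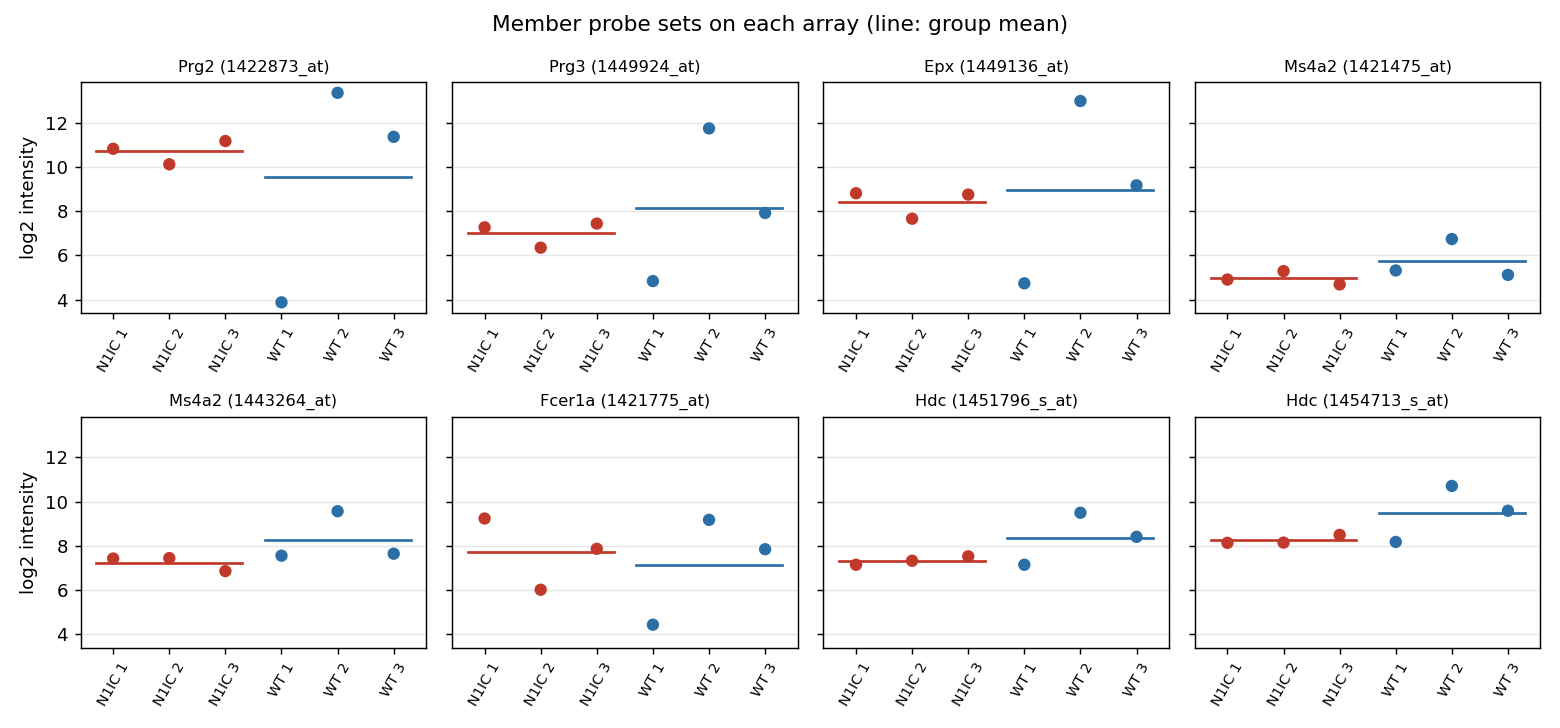
Log2 intensity (vertical axis) of each of the 8 member probe sets on each array, with N1IC arrays in red, WT arrays in blue and a line at each group mean. Prg2, Prg3 and Epx span between 6.90 and 9.47 log2 units over the 3 WT arrays and between 1.05 and 1.15 over the 3 N1IC arrays.

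Prg2 and Prg3 lie side by side on chromosome 2 in RefSeq, with no protein-coding gene starting between them, whereas Epx lies on chromosome 11. Because both had the same highest and lowest arrays, the promoter stretches of Prg3 and Epx are shown for comparison. They are the 250 bases before the start site, 5′ to 3′ on the gene's own strand, from RefSeq on GRCm38.p6, and capitals mark the motif GATAA, or TTATC where it lies on the other strand, which GATA factors bind.
Prg3 (chr2:84987965-84988214, plus strand): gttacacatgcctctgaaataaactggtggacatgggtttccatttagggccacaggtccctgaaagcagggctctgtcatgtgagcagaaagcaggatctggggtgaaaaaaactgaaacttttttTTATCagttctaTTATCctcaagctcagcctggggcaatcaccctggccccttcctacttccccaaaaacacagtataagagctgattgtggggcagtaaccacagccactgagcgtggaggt
Epx (chr11:87875537-87875786, minus strand): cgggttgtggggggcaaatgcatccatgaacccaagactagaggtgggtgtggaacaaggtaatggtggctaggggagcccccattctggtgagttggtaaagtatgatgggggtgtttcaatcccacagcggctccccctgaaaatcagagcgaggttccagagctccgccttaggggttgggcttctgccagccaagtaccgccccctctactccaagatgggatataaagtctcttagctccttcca
The Prg3 stretch held 2 matches, 118 and 106 bases before the start site, and the Epx stretch held none. Among 32817 mouse promoter stretches of this length, 22.6% held at least 1 match and 4.28% at least 2. Promoters were found for 7 of the 8 genes. In the other stretches Ms4a2 had 3 matches, Fcer1a 1, and Hdc, Ear1 and Ear2 none. The stretches of Ear1 and Ear2, both on chromosome 14, were 97.6% identical, while all other pairs among the 7 aligned at between 46.2% and 52.2%. Further motifs were searched on both strands. AGGAAG, of the kind ETS factors bind, was held by 29.5% of all stretches and occurred once each in Prg3, Hdc, Ear1 and Ear2. The motif CACCC, of the kind KLF factors bind, was held by 52% of all stretches and by those of Prg3, Epx, Fcer1a, Ear1 and Ear2. The E-box motif CANNTG was held by 66.2% of all stretches and by those of Prg3, Epx, Fcer1a, Hdc, Ear1 and Ear2.

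The IgE receptor genes did not share 1 pattern. Fcer1a encodes the alpha chain, which binds IgE, and Ms4a2 the beta chain, which amplifies the signal. Fcer1a stood at 9.24, 6.02 and 7.87 in N1IC, against 4.44, 9.18 and 7.85 in WT. It was the member with the widest spread among N1IC arrays, 9.29-fold between the highest and the lowest, and its highest array was N1IC replicate 1. As for the granule genes, WT replicate 1 was the lowest of all 6 arrays and N1IC replicate 2 the lowest of the N1IC arrays.

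Ms4a2 stood at 7.43, 7.45 and 6.86 in N1IC, against 7.56, 9.57 and 7.65 in WT on its brighter probe set, and at 4.91, 5.29 and 4.69 in N1IC, against 5.32, 6.74 and 5.12 in WT on the dimmer one. WT replicate 2 was the highest array on both, but WT replicates 1 and 3 lay close together, with differences of 0.09 and -0.21 log2 units between WT replicates 3 and 1. On the brighter probe set the groups did not overlap, the only such case among the 8 probe sets; this held for 29.5% of all probe sets. The pair agreed on the 6 arrays, with Pearson's r of 0.979. Between Fcer1a and the brighter Ms4a2 probe set, r was 0.362. The promoter stretches of both receptor genes, which held GATAA at different places, are given in the same form.
Fcer1a (chr1:173227230-173227479, minus strand): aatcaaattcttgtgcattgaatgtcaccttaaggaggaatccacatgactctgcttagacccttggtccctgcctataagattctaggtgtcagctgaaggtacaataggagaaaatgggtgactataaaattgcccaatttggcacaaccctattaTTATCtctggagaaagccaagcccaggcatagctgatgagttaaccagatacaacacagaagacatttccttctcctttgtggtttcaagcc
Ms4a2 (chr19:11623720-11623969, minus strand): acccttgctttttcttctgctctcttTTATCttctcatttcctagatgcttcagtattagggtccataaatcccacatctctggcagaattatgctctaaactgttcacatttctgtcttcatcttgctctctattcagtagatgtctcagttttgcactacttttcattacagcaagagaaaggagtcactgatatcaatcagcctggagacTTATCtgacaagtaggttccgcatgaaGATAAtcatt
The match in Fcer1a ended 87 bases before the start site, and those in Ms4a2 219, 32 and 5 bases before it.

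Hdc is histidine decarboxylase, the enzyme that makes histamine. On its brighter probe set it stood at 8.14, 8.15 and 8.50 in N1IC, against 8.18, 10.71 and 9.59 in WT. The other probe set gave 7.15, 7.33 and 7.53 in N1IC, against 7.15, 9.50 and 8.41 in WT. On both, WT replicates 2 and 3 lay above every N1IC array, while WT replicate 1 stood at the level of the N1IC arrays. N1IC arrays differed by 1.28-fold and 1.30-fold at most, the narrowest spread among the members. The pair of probe sets had a Pearson's r of 0.997 over the 6 arrays.

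Over the 8 probe sets, 7 ranged over at least 2 log2 units (4-fold) among the WT arrays, as 1.37% of all probe sets did, and 1 did so among the N1IC arrays, as 0.715% of all probe sets did. The order with WT replicate 1 lowest, WT replicate 3 next and WT replicate 2 highest of the WT arrays held for 7 of 8 probe sets and for 15.8% of all. WT replicate 2 was the highest and WT replicate 1 the lowest of all 6 arrays for 4 of 8, and for 2.26% of all. The SD over WT arrays exceeded that over N1IC arrays for all 8. Its median was 1.86 over WT arrays and 0.44 over N1IC arrays, against 0.16 and 0.15 for all probe sets. Since the members were chosen for this spread, these shares describe them and support nothing further.

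**Figure D2:**
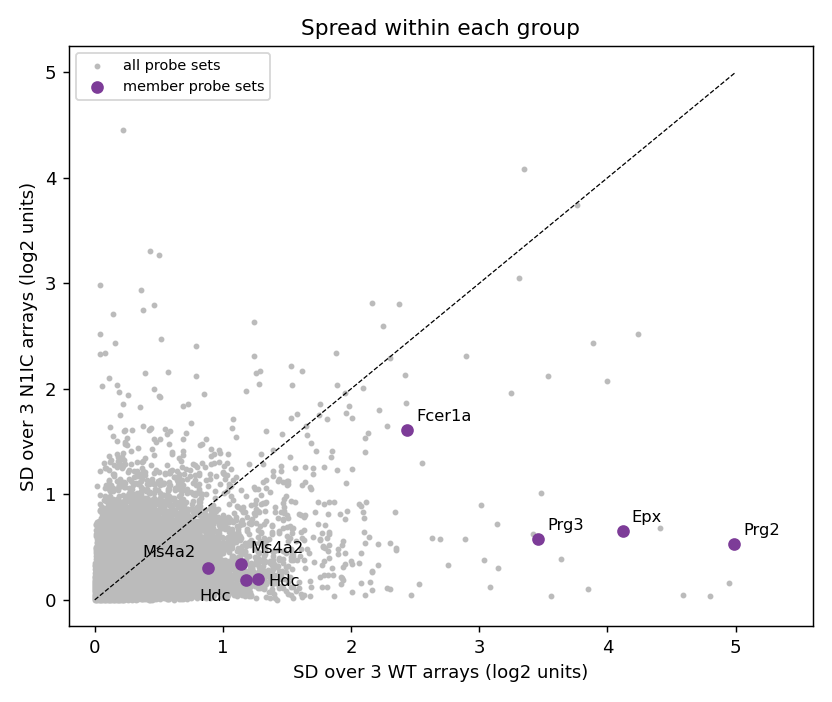
SD over the 3 WT arrays (horizontal axis) against SD over the 3 N1IC arrays (vertical axis), in log2 units, for all probe sets in grey and the 8 member probe sets in purple, with a dashed line at equality. All members lie below the line, and Prg2 has the largest WT SD of the array, 4.99.

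The direction of the mean difference depended on which WT array was counted. With all arrays, N1IC minus WT was 1.18 ± 2.36 for Prg2, -0.56 ± 1.96 for Epx, -1.14 ± 1.65 for Prg3 and 0.55 ± 1.38 for Fcer1a (log2, moderated SE, n = 3 each). It was -1.02 ± 0.56 for the brighter probe set of Ms4a2 and -1.23 ± 0.61 for that of Hdc. Without WT replicate 1, the difference was below 0 for all 8 probe sets, at -1.65 for Prg2, -2.67 for Epx, -2.81 for Prg3 and -0.80 for Fcer1a. Without WT replicate 2, it was above 0 for these 4 genes, at 3.09, 1.45, 0.64 and 1.56, and stayed below 0 for Ms4a2 and Hdc, at -0.36 and -0.62. By limma over all probe sets, which called 7.92% of them at an adjusted p of 0.05 (3.16% higher and 4.76% lower in N1IC), 0 of the 8 were called, and 0 had an unadjusted p under 0.05; because the values that chose the members enter this fit, nothing is read from that count. For Fcer1a the difference was also below 0 without N1IC replicate 1, at -0.21.

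WT replicate 2 was the only WT female, and all N1IC mice were female. An effect of sex can therefore not be told apart from differences between mice or groups. Between the WT males, replicate 3 minus replicate 1 was 7.48 log2 units for Prg2, 4.43 for Epx and 3.40 for Fcer1a. The female WT replicate 2 minus the male WT replicate 3 was smaller for these genes, at 1.98, 3.81 and 1.33. For the brighter Hdc probe set these steps were 1.41 and 1.12. The step between the sexes was the wider for Prg3, at 3.82 against 3.08. It was also wider for both Ms4a2 probe sets, at 1.92 against 0.09 and 1.62 against -0.21. The male WT replicate 3 also lay above all N1IC arrays, which are female, for Prg2, Epx, Prg3, Hdc and the brighter Ms4a2 probe set. On that Ms4a2 probe set the male WT replicate 1 lay above them too, at 7.56. Among females, WT replicate 2 lay above all 3 N1IC arrays for 7 of 8 probe sets, the exception being Fcer1a, which was 0.06 log2 units higher on N1IC replicate 1. The mean of the N1IC arrays minus WT replicate 2 was -2.64 for Prg2, -4.72 for Prg3, -4.58 for Epx, -1.47 for Fcer1a, -2.33 for the brighter Ms4a2 probe set and -2.45 for the brighter Hdc probe set. These differences set 3 arrays against a single one, on which most of the members were highest, and are given without a test.

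The mean levels of the eosinophil, basophil and neutrophil marker lists had the members' order of the WT arrays, and those of the mast cell list did not. The eosinophil and basophil lists hold members, so their order is not separate from that of the members. The 6 measured eosinophil markers, 3 of them members, had mean levels of 8.14, 7.74 and 8.34 in N1IC and of 5.38, 9.71 and 7.80 in WT. Among those that are not members, Siglecf and Ccr3 lacked the members' WT order, at 9.50, 10.23 and 9.39 and at 3.59, 3.61 and 2.97. Il5ra had it, but within 0.59 log2 units. The 5 basophil markers, 3 of them members, averaged 7.96, 7.31 and 7.72 in N1IC and 6.95, 9.38 and 8.22 in WT. The basophil markers that are not members, Mcpt8 and Cd200r3, had the members' WT order, over 2.32 and 0.53 log2 units. Mast cell markers, 5 proteases with no member among them, averaged 10.14, 8.41 and 8.98 in N1IC and 6.41, 6.63 and 8.69 in WT, so that WT replicate 3 and not WT replicate 2 was the highest WT array. Among them, Mcpt4, a chymase, stood at 10.16, 9.13 and 9.33 in N1IC, against 4.48, 4.27 and 8.36 in WT.

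Neutrophil genes followed the WT order of the members, with WT replicate 1 lowest and WT replicate 2 highest, in 6 of 8 markers of secondary granules and mature neutrophils and in 5 of 6 primary granule markers. The 8 measured markers of secondary granules and mature neutrophils averaged 9.92, 10.20 and 10.77 in N1IC and 10.52, 12.41 and 12.31 in WT, with WT replicates 2 and 3 0.10 log2 units apart. Their summed intensity ranged between 24733 and 37108 in N1IC and between 31484 and 78416 in WT. Ltf, the iron-binding protein lactoferrin, stood at 8.99, 9.40 and 10.18 in N1IC, against 9.73, 12.73 and 12.62 in WT. The 6 primary granule markers averaged 10.36, 10.99 and 11.34 in N1IC and 11.82, 12.75 and 12.50 in WT, with summed intensities between 9762 and 18667 in N1IC and between 29623 and 51600 in WT. For comparison, the summed intensity of the eosinophil markers ranged between 4364 and 5886 in N1IC and between 859 and 23205 in WT, and that of the mast cell markers between 7100 and 11831 in N1IC and between 1404 and 3443 in WT. WT replicate 1 was the lowest WT array on all 5 of these lists. By limma with Benjamini-Hochberg adjustment, Siglecf was higher among the eosinophil markers, Cpa3 was higher among the mast cell markers, 3 primary granule markers and 1 marker of mature neutrophils were lower, and 0 of the basophil markers were called (also 0 at an unadjusted p of 0.05). The mean levels of T cell, macrophage and erythroid markers had the members' WT order too. Their ranges were narrower than that of the eosinophil list, which holds members chosen for their spread. The part of other cells in the spread of the members was not tested.

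**Figure D3:**
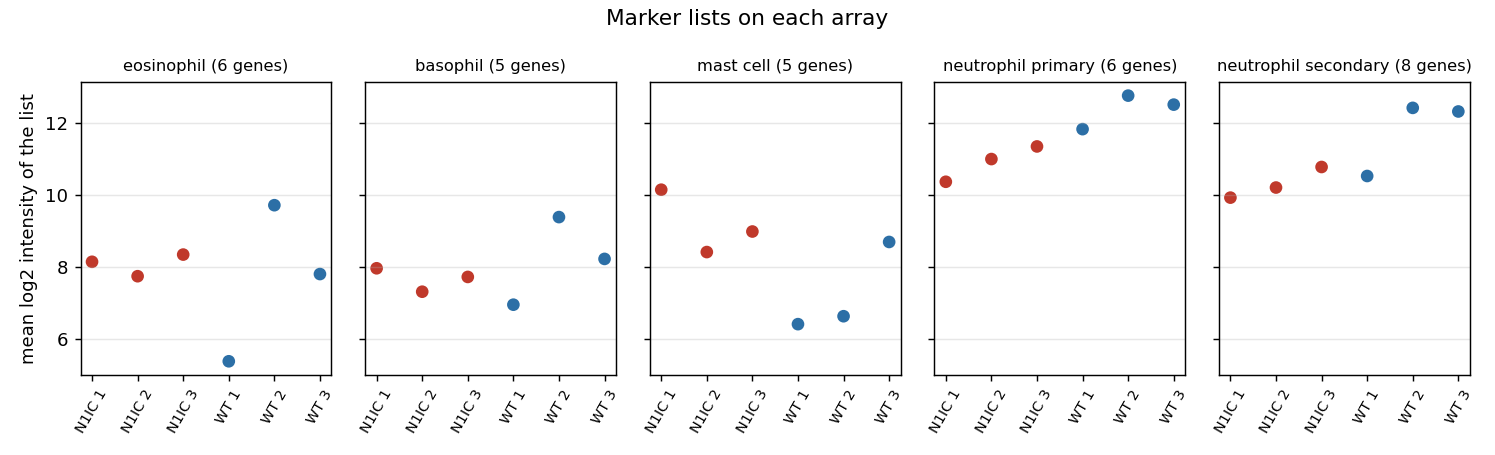
Mean log2 intensity (vertical axis) of 5 marker lists on each array, with N1IC in red and WT in blue. WT replicate 2 has the highest mean of the 6 arrays for the eosinophil and basophil lists, at 9.71 and 9.38, each of which holds 3 members. For the eosinophil markers that are not members, Il5ra, Ccr3 and Siglecf, WT replicate 2 lay below all N1IC arrays. The mast cell list has its highest WT value, 8.69, on WT replicate 3.

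Other genes of these lineages, which had no part in the choice of members, were counted in 6 lists by the brightest probe set of each gene. Of 100 genes measured, 6 were higher and 15 lower in N1IC by limma with Benjamini-Hochberg adjustment over all probe sets; over 18194 genes, 2.66% were higher and 6.88% lower. Of the 20 called genes named below, 10 kept their call in every fit that left out 1 array, and 6 kept it with sex as a covariate, namely Siglecf, Cpa3, Gzmb, Mcpt1, Il1rap and Cebpa.

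Among 15 measured genes of eosinophil surface and effector proteins, 1 was higher and 2 were lower, with a median log2 difference of 0.02 against -0.01 over all genes. Siglecf, an inhibitory sialic acid receptor typical of mouse eosinophils, was 3.31-fold higher, at 11.34, 11.47 and 11.48 in N1IC against 9.50, 10.23 and 9.39 in WT, with an adjusted p of 0.0115 by limma. Its WT arrays lay within 0.84 log2 units, unlike those of the granule genes. The chemokine Ccl9 fell by 1.45 on the log2 scale (adjusted p = 0.00427 by limma). Galc, a lysosomal galactosidase, fell by 1.22 (adjusted p = 0.0151 by limma), a call lost without N1IC replicate 1 (adjusted p = 0.0527 by limma). Il5ra, the receptor chain for the eosinophil cytokine interleukin 5, stood at 6.58, 6.68 and 6.37 in N1IC, against 5.74, 6.33 and 5.99 in WT and was not called (adjusted p = 0.14 by limma). Ear3, the family member of Ear1 and Ear2 that a probe set names, stood at 8.77, 7.71 and 8.37 in N1IC, against 5.77, 10.18 and 7.92 in WT, in the same WT order as Epx. Near-identical copies within the Ear family may share its signal.

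Of 21 measured genes of basophil and mast cell effectors, 3 were higher and 1 was lower, with a median of 0.20. Mcpt1, a chymase of mucosal mast cells, stood at 11.09, 10.74 and 10.43 in N1IC, against 3.10, 3.31 and 3.13 in WT (adjusted p = 0.000162 by limma). The difference was 7.57 on the log2 scale over a dim WT signal that has no detection call here, and 5.42 with an offset of 32 added before log2, so its size depends on the low values. Gzmb, granzyme B, was 28.8-fold and Cpa3, a carboxypeptidase of mast cell and basophil granules, 3.93-fold higher, with adjusted p of 0.00391 and 0.00522 by limma. Cpa3 stood at 12.61, 12.50 and 12.41 in N1IC, against 10.14, 10.89 and 10.56 in WT, all N1IC arrays above all WT arrays. Slc18a2, the vesicle transporter that loads histamine and other amines, fell by 0.38 (adjusted p = 0.049 by limma), a call lost in each of the 6 fits that left out 1 array (adjusted p between 0.0983 and 0.146 by limma). Mcpt8, a protease of basophils, was not called (adjusted p = 0.679 by limma). It stood at 9.23, 10.61 and 10.31 in N1IC, against 9.47, 11.80 and 10.55 in WT, the WT arrays in the order shared by 7 of the 8 member probe sets.

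In the IgE receptor signalling list, 1 of 17 measured genes was higher and 3 were lower, with a median of -0.28. Fcer1g, the gamma chain that completes the receptor of Fcer1a and Ms4a2, averaged 11.99 ± 0.15 in N1IC and 11.93 ± 0.43 in WT (SD, n = 3 each) and was not called (adjusted p = 0.914 by limma). Orai1, the channel for calcium entry after receptor crosslinking, fell by 0.87 (adjusted p = 0.0147 by limma). Inpp5d, a phosphatase that restrains the signal, and Syk, its kinase, both fell by 0.63 (adjusted p = 0.0162 and 0.0312 by limma), while the adaptor Lcp2 was 1.67-fold higher (adjusted p = 0.0334 by limma). The call of Inpp5d was lost without WT replicate 2, WT replicate 3 or N1IC replicate 3 (adjusted p between 0.0538 and 0.063 by limma). That of Syk was lost without any single array other than WT replicate 1 (adjusted p between 0.0511 and 0.0997 by limma), and that of Lcp2 without any single array other than WT replicate 3 (adjusted p between 0.0633 and 0.107 by limma). No gene of this list ranged over 2 log2 units within WT.

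Among 13 measured receptors and signal proteins of interleukin 3, interleukin 5, GM-CSF and type 2 cytokines, 3 were lower and 0 higher by limma (1 higher at an unadjusted p of 0.05), with a median of -0.29. Csf2rb, the beta chain shared by the receptors of interleukin 3, interleukin 5 and GM-CSF, stood at 9.65, 10.07 and 9.79 in N1IC, against 10.96, 11.27 and 11.0 in WT, a fall by 1.24 (adjusted p = 0.00848 by limma). Its other probe set with 1 symbol fell by 1.07 (adjusted p = 0.0141 by limma). A probe set that names both Csf2rb and Csf2rb2 fell by 0.65 and was not called (adjusted p = 0.0543 by limma). Il1rap, the accessory chain of receptors for interleukin 1 and interleukin 33, fell by 1.07 (adjusted p = 0.00261 by limma). Il4ra fell by 0.98 (adjusted p = 0.0362 by limma), a call lost without any single array other than WT replicate 1 (adjusted p between 0.057 and 0.117 by limma). Il3ra and Kit were not called, at log2 differences of -0.39 and -0.25 (adjusted p = 0.294 and 0.27 by limma).

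Of 18 measured transcription factors of eosinophils, basophils and mast cells, 5 were lower and 0 higher by limma (1 higher at an unadjusted p of 0.05), with a median of -0.40. Cebpa, a myeloid factor, stood at 9.43, 8.95 and 9.75 in N1IC, against 12.12, 12.40 and 12.21 in WT, 7.29-fold lower (adjusted p = 0.00235 by limma). Irf8 was 7.58-fold lower (adjusted p = 0.0149 by limma), a call lost without either of N1IC replicates 1 and 2, or without WT replicate 3 (adjusted p between 0.0503 and 0.0624 by limma). Gata2, needed for basophils and mast cells in mice, stood at 12.47, 12.36 and 12.14 in N1IC, against 13.05, 12.96 and 13.03 in WT. Its fall by 0.69 was called (adjusted p = 0.0196 by limma) but not without WT replicate 2, WT replicate 3 or N1IC replicate 2 (adjusted p between 0.0536 and 0.0644 by limma). Id1, an inhibitor of bHLH factors, fell by 1.07 (adjusted p = 0.0394 by limma), lost without any single array other than WT replicate 1 (adjusted p between 0.0832 and 0.122 by limma). Gata1, required for eosinophils in mice, was not called, at 11.10, 10.84 and 9.96 in N1IC, against 10.79, 11.16 and 10.75 in WT (adjusted p = 0.673 by limma). The WT arrays thus lay within 0.41 log2 units for Gata1 and 0.10 for Gata2. No probe set with 1 symbol was matched to Cebpe.

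In the list of histamine and eicosanoid enzymes and receptors, 1 of 16 measured genes was higher and 1 lower, with a median of 0.11. Hnmt, which inactivates the histamine that Hdc makes, stood at 7.07, 6.90 and 5.99 in N1IC, against 9.06, 8.59 and 8.68 in WT, 4.35-fold lower (adjusted p = 0.0143 by limma). Hpgds, which makes prostaglandin D2, was 2.13-fold higher (adjusted p = 0.0499 by limma), a call lost without any single array other than WT replicate 1 (adjusted p between 0.0837 and 0.128 by limma).

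**Figure D4:**
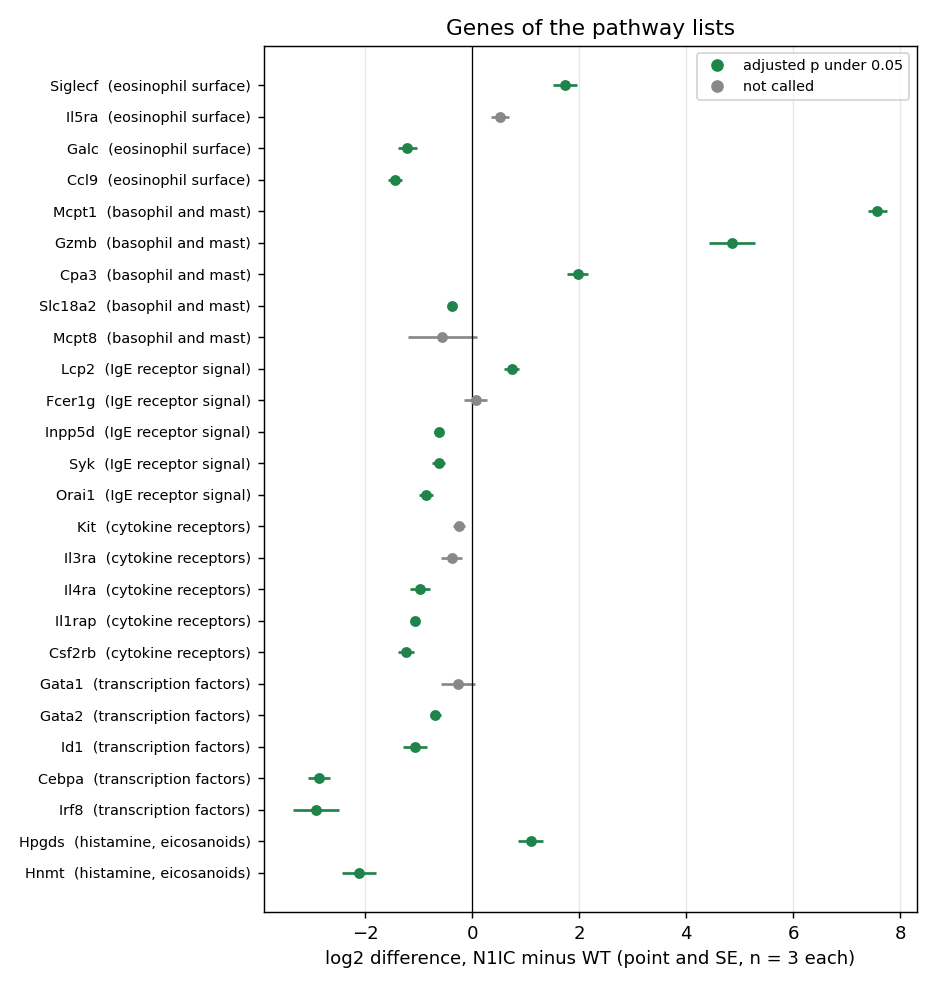
Log2 difference, N1IC minus WT, with its moderated SE (horizontal axis, 3 arrays a group) for the 26 genes named from the 6 lists, grouped by list, with called genes in green. Mcpt1, Gzmb, Cpa3 and Siglecf lie farthest to the right, and Cebpa and Irf8 farthest to the left, at -2.87 and -2.92.

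For each member gene, the 3 other genes closest in pattern were taken by Pearson's r over the 6 arrays, among 1274 genes that spanned at least 2 log2 units. Epx was closest to Ear3 (r = 0.965), the chemokine gene Cxcl12 (0.935) and 2010109A12Rik (0.922). Prg3 was closest to Cxcl12 (0.948), Cd300ld (0.94) and Pgr (0.938). Without WT replicates 1 and 2, the arrays farthest from the median of both members, r was 0.48 for Epx with Ear3 and 0.879 for Prg3 with Cxcl12. Prg2 was closest to the chemokine gene Xcl1 and to Ly86 (0.972 each), but without the same arrays r was -0.339 and 0.192, and it was 0.868 for Ly6d, the third gene (0.968 on all arrays).

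Fcer1a was closest to Hspa1b, a heat shock protein, and Fosb, a subunit of AP-1 (r = 0.945 and 0.936), both low on WT replicate 1 and N1IC replicate 2. Hspa1b stood at 12.87, 10.65 and 12.72 in N1IC, against 9.73, 13.26 and 13.18 in WT. Without those arrays r was 0.23 and 0.176. The next gene was Ly6d (0.925). Ms4a2 was closest to Cyp4b1 (r = 0.961), Igkv15-103 (0.941) and Tmem178 (0.933), and without WT replicate 2 and N1IC replicate 3 its r with Cyp4b1 was 0.922. Hdc was closest to Arg2, a mitochondrial arginase (0.998), Itgb2l (0.987) and Mogat2 (0.987), and r with Arg2 was 0.884 without WT replicates 2 and 3. For Hdc, 96 of the 1274 genes reached an r of 0.9, against 13 for Prg2, 9 for Prg3, 7 for Ms4a2, 6 for Fcer1a and 5 for Epx.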

How the data were processed

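The authors deposited 1 linear intensity per probe set and array, made with RMA per the submitters' processing notes, whose settings were not found here. Per the labels' protocols, each array took 5 ng of total RNA, amplified by a Nugen Ovation kit, a step that can add noise between arrays. Log2 was taken of the deposited intensity values. Symbols came from the platform's annotation, and list genes were matched by gene ID to RefSeq (GRCm38.p6). The difference between N1IC and WT was tested over 45037 probe sets with limma 3.58.1 under R 4.3.3, by a two-sided moderated test without covariates, with Benjamini-Hochberg adjustment and a threshold of 0.05, after the test was checked on simulated data. The probe set was the unit, since members are probe sets. Files were read with the data.table package (version 1.17.8). Summaries and plots used Python 3.11.15, pandas 2.3.3, numpy 2.4.6 and matplotlib 3.10.9, and promoters were aligned with biopython 1.88.

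Members, lists and tests were chosen with earlier results of these data known. Named from each list were up to 4 called genes by smallest p, and fixed genes such as Gata1, Kit and Notch1. Motifs and the Ltf, Mcpt4, Ear3, Rnase2a and Rnase2b values were chosen after values were seen. Of 11 marker lists, those of LSK cells and of 5 granulocyte types are in the report and the others among the closing observations. The labels name 1 mouse per sample and give no batch. The titles of WT replicates 1 and 2 end in the letter b, which the other titles lack, and its meaning is not known here. These are the arrays at the ends of the WT range for Prg2, Epx and Prg3. No detection calls were used, so a dim probe set is not called absent. The size of differences that involve dim values is uncertain and may be understated, which was not tested. Replicate numbers were not taken as pairs in the main fit. Deviations of same-numbered arrays from their group means correlated at -0.088, -0.093 and 0.096. Those of arrays with unlike numbers correlated at between -0.098 and 0.168. With 3 arrays a group, such values show no pairing but cannot exclude it. Alternatives were other normalizations, filters, priors, weights, covariates and thresholds, and leaving out each array.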

Additional observations from a re-analysis of the deposited data

How the results depend on the processing

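The mean differences of the members rest on WT replicates 1 and 2, and 3 arrays a group limit every count. The median SD of the member probe sets over WT arrays, 1.86, was 1.85 after a repeated quantile normalization, 1.84 after median centring, 1.49 with an offset of 32 before log2, and between 1.25 and 2.57 with 1 WT array left out. Over all probe sets, 1422 were higher and 2146 lower. These counts were 607 and 1003 with the replicate block, 161 and 344 with sex as a covariate, 272 and 573 over females alone, 331 and 626 at an adjusted p of 0.01, and 2631 and 3352 at 0.1. With 1 probe set per gene 632 were higher, among fewer features tested. Leaving out 1 array gave 615 to 1258 higher and 1051 to 1964 lower. Of the genes of the pathway lists, 6 were higher and 15 lower. The lower count was 8 with the replicate block, 2 with sex as a covariate, 3 over females alone and 4 at 0.01. The higher count was 3 at 0.01 and 10 at 0.1. With 1 array left out, 4 to 7 were higher and 8 to 18 lower. No member probe set was called, nor with the replicate block, but 1 was with sex as a covariate, 4 over females alone and 0 to 1 with 1 array left out (the brighter Hdc probe set without WT replicate 1). Both fits on sex set N1IC against WT replicate 2 alone, where most members were highest, and the members were chosen on these values, so nothing is read from these counts. The cause of these changes was not tested; the fits over females alone or without an array have fewer samples. No called gene named in the report changed its direction under any alternative run.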

Other observations

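Other genes with a large spread among WT arrays did not share 1 order, and they were picked after their values were seen. Some probe sets without a symbol did have the members' WT order. The one with the largest SD over WT arrays, 4.41, stood at 10.13, 9.0 and 10.23 in N1IC, against 3.27, 11.75 and 9.61 in WT. Among named genes, probe sets of Hspa1a, Hspa1b, Ifi44l, Ighm and Gbp2b also had the members' WT order. Those of Igha, Mcpt2 and Xist and a further probe set of Ifi44l lacked it. Igha, the constant region of immunoglobulin A, stood at 10.67, 6.34 and 10.74 in N1IC, against 5.14, 12.33 and 12.63 in WT, with an SD of 4.24 over WT arrays. Hspa1a, a heat shock protein, stood at 9.39, 5.16 and 9.35 in N1IC, against 4.02, 10.86 and 10.66 in WT. Both were low on WT replicate 1 and N1IC replicate 2, as Fcer1a was. Mcpt2, a mast cell protease, was high on all N1IC arrays, at 10.78, 10.57 and 9.62, and on WT replicate 3 alone among WT arrays, at 3.66, 3.91 and 9.70. Ifi44l, an interferon-induced gene, stood at 9.81, 9.57 and 3.21 in N1IC, against 3.02, 9.56 and 3.07 in WT. Xist, the RNA of the inactive X chromosome, had the second largest SD over WT arrays, 4.95, and was high on WT replicate 2, the only WT female, at 12.70 against 4.27 and 3.99 on the male arrays.

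Marker lists of other lineages had means that varied less among WT arrays than the eosinophil list did, which ranged between 5.38 and 9.71 there. That list holds Prg2, Prg3 and Epx, which were chosen for their spread, so the comparison does not rank the lineages. Its other markers, Il5ra, Ccr3 and Siglecf, ranged over 0.59, 0.64 and 0.84 log2 units among the WT arrays. Mean levels ranged between 11.54 and 11.84 in N1IC and between 5.69 and 6.62 in WT for 5 T cell markers, and between 6.53 and 7.21 in N1IC and 10.00 and 10.68 in WT for 5 B cell markers. For 5 megakaryocyte markers the ranges were 6.85 to 7.41 in N1IC and 9.59 to 9.69 in WT. For 8 macrophage markers they were 7.10 to 7.92 in N1IC and 6.47 to 6.72 in WT, and for 4 erythroid markers 10.76 to 11.51 in N1IC and 10.22 to 11.01 in WT. By limma with Benjamini-Hochberg adjustment, all 5 T cell markers were higher, 4 of the B cell and 4 of the megakaryocyte markers lower, 2 of the macrophage markers higher and 0 of the erythroid markers called (1 was higher at an unadjusted p of 0.05).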
